A study of Homo sapiens with 8 samples.

Results

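The genes described here write and maintain repressive marks on chromatin: UHRF1, DNMT1, DNMT3A, DNMT3B, HELLS, EZH2, SUV39H1 and SUV39H2. They are 8 of the 19775 genes named on the array, and they were taken by name. The platform annotation gives 15 of the 54675 probe sets to exactly 1 of them: 5 for HELLS, 3 for DNMT3A, 2 for SUV39H2 and 1 for each of the others. They were read in ACHN, CAKI2, A498 and CAKI1, 4 established human renal carcinoma lines that the submitters call clear cell lines. A939572 blocks SCD1, the desaturase that makes monounsaturated fatty acids. Every line contributed a pair of arrays, one from cells kept for 24 h in 75 nM of the compound and one from cells kept as long in DMSO, its vehicle. The labels name no genetic change in any line and do not say whether cultures were repeated, so the 4 lines are the replicates. The p-values come from limma, which moderates each gene's spread between the lines with that of other genes. They therefore do not measure the SD printed beside them alone.

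DNA methylation is copied after each round of replication: UHRF1 reads the hemimethylated CpG left behind the fork and brings in DNMT1, the maintenance methyltransferase, which restores the mark on the new strand. DNMT3A and DNMT3B place methyl groups on unmethylated CpG, and HELLS (LSH), a chromatin remodeller, opens nucleosomal DNA to them. EZH2 is the catalytic subunit of Polycomb repressive complex PRC2 and methylates histone H3 at lysine 27, while SUV39H1 and SUV39H2 methylate lysine 9 in heterochromatin. UHRF1, DNMT1, HELLS and EZH2 are known as genes of proliferating cells, induced by E2F factors at entry into S phase.

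The arrays had median signals between 68.6 and 84.2 units, and their number limits the precision. PAX8, the renal lineage factor, had signals of 4079 to 8278, and 8 of 9 renal carcinoma markers measured reached the array-wide median level (log2 of 6.41), the exception being CDH16. Of the leukocyte markers 0 of 4 reached that level, of the endothelial markers 1 of 4 (PECAM1) and of the fibroblast markers 1 of 5 (COL1A1). Of the 10 markers bright enough to test, COL1A1 (-1.04 ± 0.36, SD over 4 lines; limma adjusted p = 0.00318) and LHX1 (-1.65 ± 0.70; 0.00656) were lower with A939572 and PAX8 was higher (0.38 ± 0.19; 0.0294). LHX1 signals ran from 6.97 to 208 and those of COL1A1 from 27.8 to 1257, so both reached below the array medians. The 3′ over 5′ ratio of the ACTB control probe sets, a sign of RNA length, was 2.12 to 2.33 in DMSO and 3.02 to 4.22 in A939572, and that of GAPDH was 0.962 to 1.05 and 1.01 to 1.11. The part of these differences in the values given here was not tested.

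The start regions of the genes are shown first. Each of the 4 members with the largest falls had at least 1 window with E2F-type letters, in differing forms. No window searched of the other 4 held them. A relation between these letters and the falls was not tested. Each window runs from 250 bases before to 50 bases after a start annotated by RefSeq (GRCh38.p14). Capitals mark E2F-type letters, which are TTTCCCGC, TTTGGCGC, TTTCGCGC or TTTGCCGC on either strand. DNMT3B is shown beside them by the only window at hand for it. That window holds 3 CpG, against 22 (HELLS) to 46 (EZH2) in the others shown. Any start of DNMT3B outside it was not searched, and whether this is the main start of the gene was not examined. The CpG count and the lack of E2F-type letters therefore describe this window, not the DNMT3B gene.
UHRF1, chr19:4909251-4909550, plus strand: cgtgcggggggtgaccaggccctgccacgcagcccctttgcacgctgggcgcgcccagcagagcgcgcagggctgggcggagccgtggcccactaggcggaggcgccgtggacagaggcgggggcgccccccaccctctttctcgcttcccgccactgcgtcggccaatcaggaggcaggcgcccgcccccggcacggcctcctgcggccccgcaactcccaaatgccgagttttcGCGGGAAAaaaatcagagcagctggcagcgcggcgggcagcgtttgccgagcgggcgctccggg
DNMT1, chr19:10194904-10195203, minus strand: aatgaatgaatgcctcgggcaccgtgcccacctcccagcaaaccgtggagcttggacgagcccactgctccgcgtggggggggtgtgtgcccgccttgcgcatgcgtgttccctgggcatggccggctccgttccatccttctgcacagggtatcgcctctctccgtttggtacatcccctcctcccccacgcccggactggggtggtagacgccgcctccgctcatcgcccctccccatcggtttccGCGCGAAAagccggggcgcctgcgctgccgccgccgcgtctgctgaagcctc
HELLS, chr10:94545538-94545837, plus strand: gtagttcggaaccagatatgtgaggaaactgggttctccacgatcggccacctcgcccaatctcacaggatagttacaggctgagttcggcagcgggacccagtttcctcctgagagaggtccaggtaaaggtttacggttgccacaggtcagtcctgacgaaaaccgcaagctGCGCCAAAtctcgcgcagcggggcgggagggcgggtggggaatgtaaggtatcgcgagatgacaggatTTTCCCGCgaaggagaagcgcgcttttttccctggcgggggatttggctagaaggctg
EZH2, chr7:148884242-148884541, minus strand: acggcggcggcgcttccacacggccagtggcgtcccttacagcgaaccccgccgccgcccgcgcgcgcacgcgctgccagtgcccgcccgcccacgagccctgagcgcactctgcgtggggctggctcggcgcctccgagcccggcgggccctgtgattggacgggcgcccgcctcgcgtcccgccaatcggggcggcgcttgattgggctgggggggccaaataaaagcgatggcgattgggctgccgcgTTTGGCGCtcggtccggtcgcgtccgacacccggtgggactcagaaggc
DNMT3B, chr20:32779602-32779901, plus strand: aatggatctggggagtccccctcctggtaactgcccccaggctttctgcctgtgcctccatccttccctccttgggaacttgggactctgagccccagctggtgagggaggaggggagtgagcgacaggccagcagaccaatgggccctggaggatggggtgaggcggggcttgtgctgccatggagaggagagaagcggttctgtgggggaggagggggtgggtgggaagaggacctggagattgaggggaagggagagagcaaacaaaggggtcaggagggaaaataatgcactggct
The windows shown of UHRF1, DNMT1, HELLS and EZH2 held these letters. In the UHRF1 window they began 14 bases before the start, in DNMT1 2 bases before it, and in HELLS 76 and 8 bases before it. Those of DNMT1 run across the start itself. In EZH2 they began at the second base of the transcript. A further UHRF1 window of the 3 annotated held them once, and the other EZH2 window of 2 did not. None was found in the 6 windows of DNMT3A, the 2 of SUV39H1 or the single ones of DNMT3B and SUV39H2. Of all 35116 RefSeq windows of this length 3.31% held them, and of the 22199 of protein-coding genes, which all members are, 4.1%. The letters CCAAT, bound by NF-Y and found in 34.6% of all windows and 34.7% of protein-coding ones, occurred 4 times in the EZH2 window shown, 1 time each in the windows shown of UHRF1, HELLS and DNMT3B, and not in that of DNMT1. TTTGAA or TTCGAA, letters of the cell cycle homology region found in 16.4% of all windows and 13.7% of protein-coding ones, occurred in 1 window of DNMT3A and in that of SUV39H2. Genes with several windows had more chances of a match, and a match describes letters, not a bound site.

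A939572 went with lower UHRF1, HELLS, EZH2, DNMT1 and SUV39H2 and with higher DNMT3B, while DNMT3A and SUV39H1 did not pass. Differences were taken within each line on log2(signal + 16) after quantile normalization, and each gene was tested through its brightest probe set with limma, at an adjusted p of 0.05 over 12093 genes. Of the 8 members 5 were lower and 1 was higher. Over all genes tested 15.9% were lower and 14.7% higher, 30.6% in all. The median log2 difference was -0.80 over the members and -0.03 over all genes tested. By line the members' median was -1.10 (ACHN), -0.96 (CAKI2), -0.88 (A498) and -0.60 (CAKI1). In 5 of the 8 genes the signal was lower in 4 of 4 lines, against 25.3% of all genes tested. When arrays were instead centred on their medians, 58.3% of all called genes were higher against 48.0% here. Without the cell line as a block, 2 of the members, UHRF1 and HELLS, kept their calls, and 67 genes were called in all. All 8 genes passed the filter on dim genes, and 13 of the 15 probe sets did. In a fit over all 22703 probe sets tested, 8 of those 13 were lower and 1 was higher, against 13.9% and 13.5% of all probe sets.

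**Figure D1:**
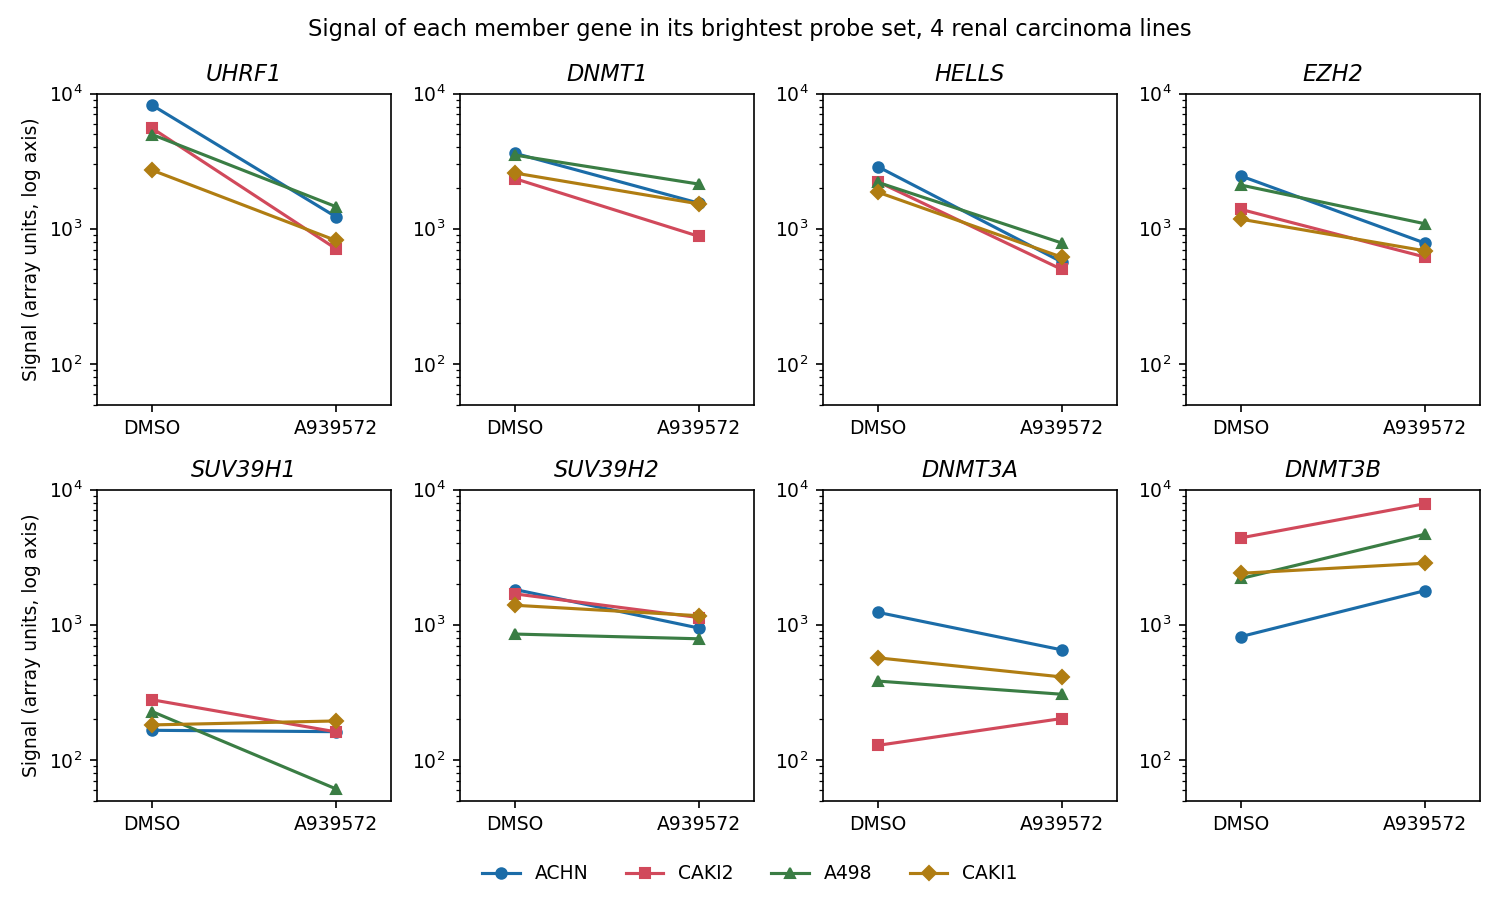
Deposited signal (array units, log axis) of the 8 genes in their brightest probe sets, with 1 point per array and a line joining DMSO to A939572 in the same cell line. UHRF1, DNMT1, HELLS and EZH2 have 4 treated signals below all 4 DMSO signals, while DNMT3B is higher with A939572 in each line.

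UHRF1, which couples replication to maintenance methylation, had the largest fall of the members. Its signal (probe set 225655_at) was 8184 (ACHN), 5529 (CAKI2), 4968 (A498) and 2708 (CAKI1) with DMSO. With A939572 it was 1228, 713, 1458 and 819 in the same order. Every treated array lay below every control array, with CAKI2 passing from the second highest control to the lowest treated signal. UHRF1, DNMT1, HELLS and EZH2 shared this separation, 4 of the 8 members, against 5.18% of all genes tested. UHRF1 differed by a log2 of -2.30 ± 0.64 (SD, n = 4 lines; limma adjusted p = 0.000267), or 4.92-fold lower, and it ranked 4 from the lowest of 12093 genes.

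DNMT1, the maintenance methyltransferase, fell as well. Its signal (201697_s_at) with DMSO was 3608 (ACHN), 2342 (CAKI2), 3502 (A498) and 2579 (CAKI1), and with A939572 it was 1546, 879, 2139 and 1527. The groups did not overlap, although the highest treated array, A498, came close to the lowest control, CAKI2. For DNMT1 the log2 difference came to -1.05 ± 0.34 (SD, n = 4 lines; limma adjusted p = 0.00117), 2.07-fold lower. Within a line the difference of UHRF1 was below that of DNMT1 in 4 of 4 lines, by 1.25 ± 0.30 on the log2 scale. Such differences between members are given as values and were not tested.

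HELLS fell in 4 of its 5 probe sets. In the brightest (227350_at) its signal with DMSO was 2868 (ACHN), 2222 (CAKI2), 2199 (A498) and 1860 (CAKI1), and with A939572 it was 569, 500.5, 785 and 616. All 4 lines ended between 500.5 and 785, below every control array. HELLS thus had a difference of -1.88 ± 0.41 on the log2 scale (SD, n = 4 lines; limma adjusted p = 0.000232), 3.67-fold lower. The next 3 probe sets had -1.73 ± 0.40, -1.67 ± 0.53 and -1.55 ± 0.68, all lower in the probe set fit (adjusted p = 0.000259, 0.00061 and 0.00179) and without overlap. The dimmest was too dim to be tested and had -0.45 ± 0.63, with 0.17 in A498.

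EZH2, the H3K27 methyltransferase, also fell. Its signal (203358_s_at) with DMSO was 2451 (ACHN), 1388 (CAKI2), 2102 (A498) and 1176 (CAKI1), and with A939572 it was 784, 618, 1089 and 687. The control arrays of CAKI1 and CAKI2 stood not far above the highest treated array, that of A498, but the groups did not overlap. On the log2 scale EZH2 differed by -1.15 ± 0.37 (SD, n = 4 lines; limma adjusted p = 0.00109), 2.21-fold lower. The difference of EZH2 minus that of DNMT1 was -0.10 ± 0.26 over the lines and had both signs.

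Of the H3K9 methyltransferase genes, SUV39H2 was lower and SUV39H1 did not pass. SUV39H2 (1554572_a_at) had signals of 1820 (ACHN), 1690 (CAKI2), 853 (A498) and 1392 (CAKI1) with DMSO, and 945, 1130, 787 and 1166 with A939572. The groups overlapped, since the A498 control lay below 3 treated arrays, but each line was lower than its own control. The log2 difference was -0.49 ± 0.37 (SD, n = 4 lines; limma adjusted p = 0.0456), 1.40-fold lower. This call was lost without ACHN (adjusted p = 0.186), CAKI2 (0.132) or CAKI1 (0.0617), and with each array centred on its median (0.0869). Its other probe set had -1.11 in ACHN and -1.11 in CAKI2 but 0.03 in A498 and 0.04 in CAKI1, and did not pass (adjusted p = 0.125).

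SUV39H1 (218619_s_at) was the dimmest member. With DMSO it had signals of 166 (ACHN), 279 (CAKI2), 228 (A498) and 182 (CAKI1), and with A939572 162, 161, 61.2 and 194. It was lower in A498 and CAKI2 and close to its control in ACHN and CAKI1. The log2 difference was -0.54 ± 0.79 (SD, n = 4 lines) and did not pass (limma adjusted p = 0.195), with a 95% interval from -1.21 to 0.12. Without A498 it was -0.20 (adjusted p = 0.621). The difference of SUV39H1 minus that of SUV39H2 was below 0 in 2 lines and above 0 in 2, from -1.46 in A498 to 0.97 in ACHN.

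**Figure D2:**
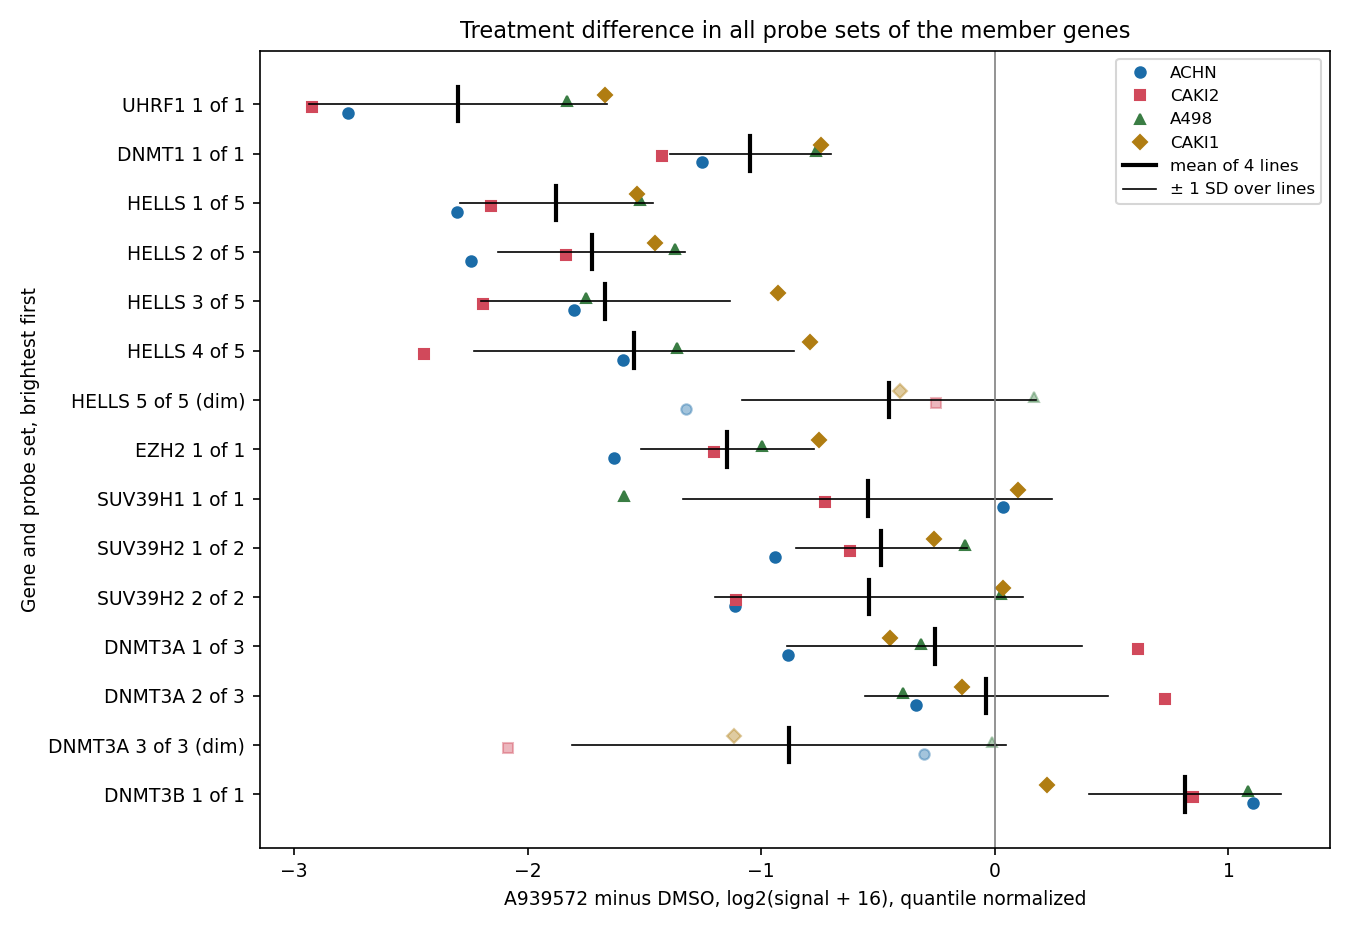
Log2 difference, A939572 minus DMSO, in all 15 probe sets of the 8 genes, with 1 point per line, a thick bar for the mean and a thin bar for 1 SD on each side. The pale points belong to the 2 probe sets too dim to be tested. By their means UHRF1 and the 4 brighter HELLS probe sets lie farthest to the left, DNMT3B lies right of 0 in 4 of 4 lines, and DNMT3A has its CAKI2 point right of 0 in the 2 brighter probe sets.

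DNMT3B, a de novo methyltransferase, was the member that rose. Its signal (220668_s_at) with DMSO was 818 (ACHN), 4393 (CAKI2), 2197 (A498) and 2402 (CAKI1), and with A939572 it was 1785, 7844, 4666 and 2848. The groups overlapped, with the lines far apart in both, yet each line was above its own control, CAKI1 by the least. The log2 difference was 0.81 ± 0.41 (SD, n = 4 lines; limma adjusted p = 0.00485), 1.76-fold higher. Set against DNMT1 on the same arrays, DNMT3B differed by 2.36 (ACHN), 2.27 (CAKI2), 1.85 (A498) and 0.97 (CAKI1), a mean of 1.86 ± 0.64. DNMT3B, like DNMT1, EZH2 and SUV39H1, is read here by a single probe set of the suffix that marks a match to several transcripts.

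DNMT3A, the other de novo methyltransferase gene, had differences of both signs. In the brightest probe set (222640_at) its signal with DMSO was 1234 (ACHN), 128 (CAKI2), 383 (A498) and 569 (CAKI1), and with A939572 it was 652, 202, 306 and 411. It was lower in 3 lines and higher in CAKI2, the line with the least DNMT3A. The log2 difference was -0.26 ± 0.63 (SD, n = 4 lines) and did not pass (limma adjusted p = 0.431), with a 95% interval from -0.78 to 0.26, and without CAKI2 it was -0.55 (adjusted p = 0.0643). The second probe set had -0.04 ± 0.52, again with CAKI2 above 0 at 0.73 and the other lines at -0.14 to -0.39. The dimmest, not tested, had -0.88 ± 0.93 and the opposite sign in CAKI2, at -2.08, where its treated signal was 11.4.

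The 2 de novo genes had the widest spans between the lines of the 8 members. Lines were compared with an F test in limma over both arrays of each line, allowing for treatment, and 6 of the 8 members differed against 61% of all genes tested. The mean level of DNMT3A was highest in ACHN, then CAKI1, A498 and CAKI2, a span of 5.22-fold (adjusted p = 0.0014). Of neighbours in that order only A498 and CAKI2 differed (adjusted p = 0.0399), as did 33.8% of all genes tested between those lines, and ACHN against CAKI1 (0.092) and CAKI1 against A498 (0.21) did not pass. The mean level of DNMT3B ran the other way, from CAKI2 through A498 and CAKI1 to ACHN, a span of 4.84-fold (adjusted p = 0.00025). There CAKI2 differed from A498 (adjusted p = 0.0183) and CAKI1 from ACHN (0.00735; 26.9% of all genes tested), while A498 against CAKI1 did not pass (0.285). Over the 8 arrays, 2 per line, the levels of DNMT3A and DNMT3B correlated at -0.88 (Pearson), a description of points that share lines.

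**Figure D3:**
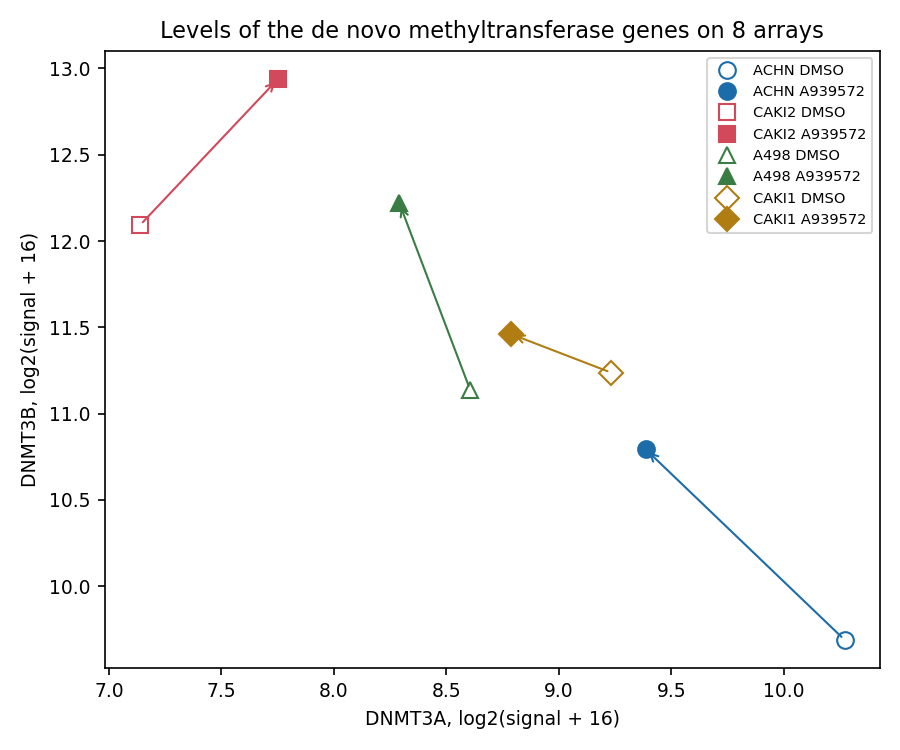
Level of DNMT3B against that of DNMT3A, both as log2(signal + 16) after quantile normalization, on 8 arrays, with an arrow from DMSO (open) to A939572 (filled) in each line. ACHN has the highest DNMT3A and the lowest DNMT3B, CAKI2 the reverse, and every arrow points up.

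The other members spanned less. The span from the highest to the lowest line mean was 2.09-fold for UHRF1 (ACHN, A498, CAKI2, CAKI1; adjusted p = 0.0427), 1.91-fold for DNMT1 (A498, ACHN, CAKI1, CAKI2; 0.0182), 1.63-fold for EZH2 (A498, ACHN, CAKI2, CAKI1; 0.0366) and 1.71-fold for SUV39H2 (CAKI2, ACHN, CAKI1, A498; 0.0435). Neighbouring lines in these orders did not pass, except CAKI1 against A498 for SUV39H2 (adjusted p = 0.0459; 36% of all genes tested). HELLS (1.24-fold, adjusted p = 0.528) and SUV39H1 (1.71-fold, 0.354) did not pass between lines. Without the variance trend 2 members differed, against 53.2% of all genes tested in that fit. Without CAKI2 it was 3 (47.7% of all genes) and without A498 also 3 (48.6%).

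Among the members UHRF1 and HELLS had the closest profiles over the 8 arrays, with a Pearson correlation of 0.97, followed by UHRF1 and EZH2 at 0.96. Over all 28 pairs the median was 0.28. The genes outside the group most like UHRF1 were DTL, RFC2 and CDK1 (0.99, 0.99 and 0.98 over 8 arrays), and those most like HELLS were TACC3, FANCI and CDCA7 (each 0.99). DNMT1 was most like SMAD7, CCNB1 and CENPF (0.99, 0.98 and 0.98) and EZH2 most like DPYSL2, NUP205 and RFC3 (0.99, 0.98 and 0.98). Among these neighbours CCNB1 and CDK1 drive mitosis, and RFC2 and RFC3 load the replication clamp. The genes closest to DNMT1 and EZH2, SMAD7 and DPYSL2, are not among those. DNMT3B was most like TTPAL, ZNF558 and CNNM4 (0.99, 0.98 and 0.98), DNMT3A most like HOXB8, ERP29 and RAX2 (0.98, 0.96 and 0.96), SUV39H1 most like MYH14, CNBP and CHRNB2 (0.97, 0.94 and 0.93) and SUV39H2 most like PIGM, RABL6 and DDAH2 (0.99, 0.98 and 0.97). These are the closest of 12093 genes, and the points share lines and arrays, so no p is given.

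Partners in DNA methylation moved both ways. Of 18 tested genes for methylation, demethylation and methyl-CpG reading, 5 rose and 4 fell, with a median of 0.05. Over all genes tested 14.7% were higher and 15.9% lower, the shares to set beside this list and those below. CDCA7, which recruits HELLS to chromatin, fell by 2.05 ± 0.65 on the log2 scale (SD, n = 4 lines; limma adjusted p = 0.000361), and its paralog CDCA7L by 0.99 ± 0.29 (0.00117). PCNA, the sliding clamp that binds DNMT1, fell by 1.44 ± 0.24 (adjusted p = 0.000151). GADD45A, a stress gene also linked to demethylation, rose by 2.17 ± 0.26 (adjusted p = 2.52e-05). Named after their values were seen, the other genes past the threshold were the demethylating dioxygenases TET2 (0.87 ± 0.37, limma adjusted p = 0.00445) and TET3 (0.66 ± 0.40, 0.0173), the glycosylase TDG (0.96 ± 0.18, 0.000587) and the reader MBD1 (0.58 ± 0.08, 0.00617), all higher, and the cytidine deaminase APOBEC3B (-0.65 ± 0.64, 0.0426), lower. TET1 had -0.57 ± 0.34 and did not pass (0.163), nor did UHRF2, the paralog of UHRF1, at 0.37 ± 0.27 (0.073).

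Of 11 other PRC2 genes 1 rose and 3 fell, with a median of 0.05. PHF19, an accessory subunit, fell by 1.08 ± 0.43 (limma adjusted p = 0.0021) and the histone chaperones RBBP7 by 0.77 ± 0.22 (0.00127) and RBBP4 by 0.55 ± 0.26 (0.00951), although of the 6 probe sets of RBBP4, from -0.55 to 0.68, 2 were lower and 1 was higher. LCOR, an accessory factor, rose by 0.46 ± 0.25 (0.0287). The core subunits SUZ12 (0.05 ± 0.11) and EED (-0.29 ± 0.19), named after their values were seen, did not pass (adjusted p = 0.726 and 0.102), nor did EZH1, the paralog of EZH2, at 0.29 ± 0.23 (0.166). Of 16 PRC1 genes 1 rose and 2 fell, both below the shares over all genes tested, with a median of -0.01. CBX2, a chromodomain subunit, fell by 1.38 ± 0.59 (0.00382). PCGF3, the other gene counted as lower, had -0.83 ± 0.42 (0.00766) in its brightest probe set, but of its 5 probe sets 1 was lower and 2 were higher, up to 1.23, so its direction depends on the probe set. PHC3 rose by 0.68 ± 0.05 (0.00176).

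Of 18 other genes of H3K9 methylation and HP1, 2 rose and 6 fell, with a median of -0.21. CHAF1B, a subunit of the chromatin assembly factor that works at the fork, fell by 1.54 ± 0.57 (limma adjusted p = 0.00175), the lamin B receptor LBR by 1.01 ± 0.20 (0.000391) and the HP1 gene CBX5 by 0.90 ± 0.47 (0.00516). KMT5B, an H4K20 methyltransferase, rose by 0.85 ± 0.14 (0.00175), while another of its probe sets had -0.26. Of 13 demethylases of H3K9 and H3K27, 7 rose and 1 fell, with a median of 0.44. KDM7A rose by 1.73 ± 0.74 (adjusted p = 0.00131), KDM6B by 1.11 ± 0.28 (0.00129), JMJD1C by 1.09 ± 0.34 (0.000782) and KDM6A by 1.03 ± 0.17 (0.000853). KDM6A and KDM6B remove the H3K27 methylation that EZH2 places. The gene that fell was KDM1A, the lysine demethylase LSD1, at -0.58 ± 0.29 (0.0167), named after its value was seen.

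Of 22 histone deacetylase and corepressor genes 1 rose and 3 fell, both below the shares over all genes tested, with a median of -0.05. HDAC9 rose by 1.56 ± 0.60 (limma adjusted p = 0.000843), and HDAC1 fell by 0.91 ± 0.10 (0.000634), HDAC2 by 0.60 ± 0.26 (0.00661) and CHD4 by 0.56 ± 0.21 (0.0121). In the S-adenosylmethionine cycle, which supplies the methyl donor, 2 of 8 genes fell and 0 rose in limma, also 0 at an unadjusted p of 0.05, with a median of -0.17. AHCY, which clears the inhibitory product S-adenosylhomocysteine, fell by 0.79 ± 0.16 (0.00115) and the synthetase MAT2A by 0.59 ± 0.43 (0.0174).

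Of 26 genes of DNA replication and proliferation 23 fell and 0 rose in limma, or 24 lower and 1 higher at an unadjusted p of 0.05. The share of all genes at that unadjusted threshold is not at hand. The 3 not called, named after their values were seen, included CDC6, at 0.62 ± 0.75 (limma adjusted p = 0.0795). CDC6 was lower in ACHN only. The others were E2F1 (-0.50 ± 0.41, 0.16) and GINS3 (-0.48 ± 0.37, 0.0533). The median of the 26 genes was -1.29, beside -0.80 for the members. GINS2, which also belongs to the helicase, fell by 2.33 ± 0.57 (limma adjusted p = 0.000208), with -0.19 in its other probe set, while the helicase subunits MCM6 (-2.24 ± 0.57), MCM4 (-2.12 ± 0.42) and MCM3 (-1.99 ± 0.62) fell beside it (limma adjusted p = 0.000198, 0.000134 and 0.000383). UHRF1 and HELLS had -2.30 and -1.88. These lists were drawn up with earlier results of these arrays known, and all were read on treated arrays with the higher ACTB 3′ to 5′ ratio given above. In RNA from whole cultures, fewer cells in a phase of the cycle and less RNA per cell cannot be told apart.

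**Figure D4:**
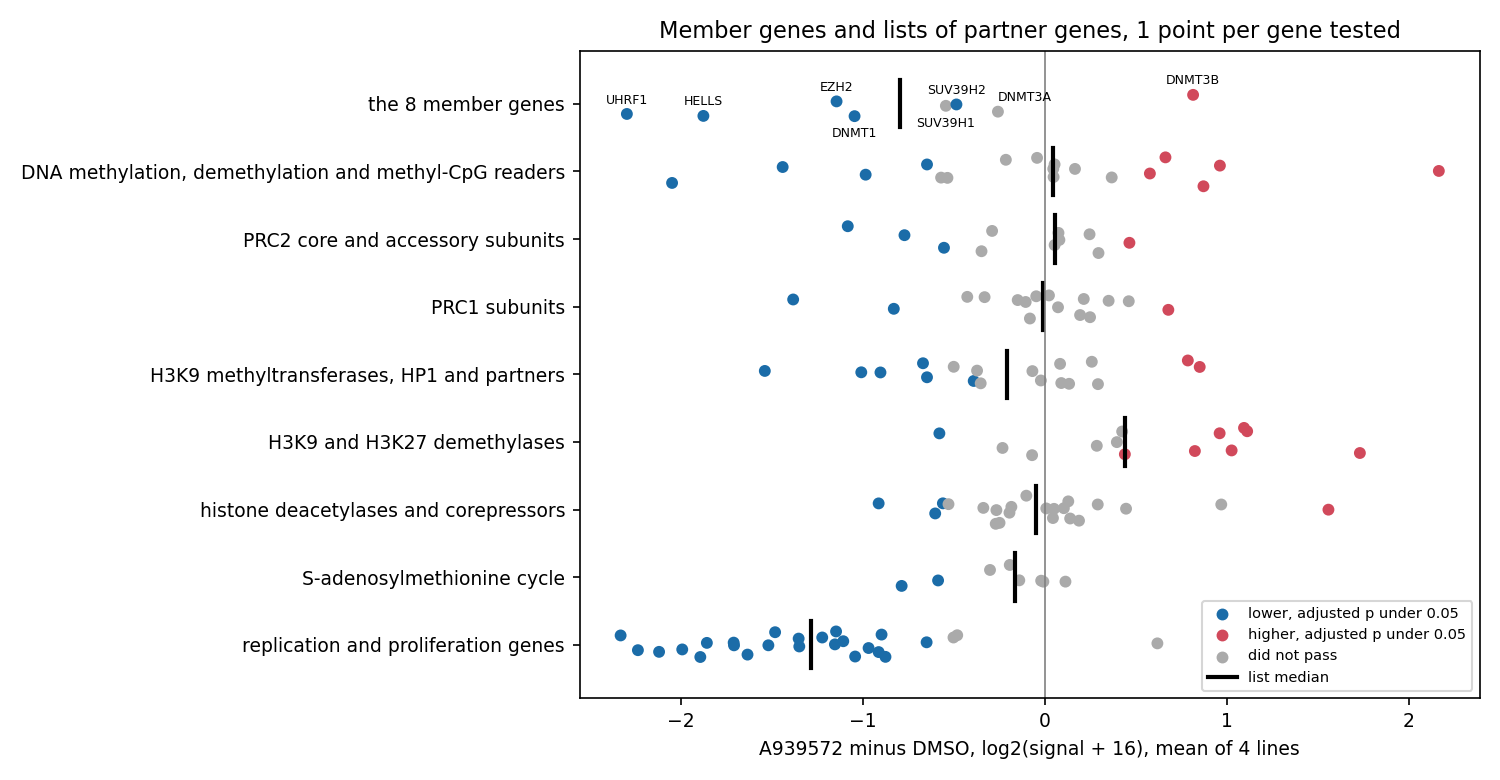
Log2 difference, A939572 minus DMSO, mean of 4 lines, for the 8 genes and for lists of partner genes, with 1 point per gene tested, coloured by call, and a bar at the list median. The replication list has its median at -1.29, the 8 members at -0.80 and the H3K9 and H3K27 demethylases at 0.44, while the other lists lie between -0.21 and 0.05.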

How the data were processed

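The authors deposited 1 intensity signal per probe set on a linear scale. From the values, each array had been scaled to the same mean, 500.067 to 500.073 after trimming 2% of probe sets at each end; the program that made the signals is not given in the sources used here. Signals were taken as log2(signal + 16) and quantile normalized after 62 control probe sets were left out. Of the rest, 41091 had 1 symbol in the platform annotation, 41037 of which were matched by Entrez ID to current RefSeq symbols. A gene stands for its brightest probe set over all arrays. Genes whose mean reached 6.41, the array-wide median, entered limma (version 3.58.1, R 4.3.3; lmFit, then eBayes with trend), with cell line as a block, 2-sided, Benjamini-Hochberg over 12093 genes. The shared cell line pairs the arrays: same-line arrays deviated together from their group means (correlations of 0.818 to 0.864 across genes; at most -0.0303 for other lines). Line by treatment cannot be tested with 1 array each. All errors of differences are SDs over the 4 lines.

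Members and lists were chosen with earlier results of these data known. Named genes were the 8 members, in each list the up to 4 called genes that changed most (where none was called, the up to 2 of smallest p), and the 3 genes closest to each member by Pearson correlation; others are marked. Alternatives changed the offset, scaling, filter, variance trend, block and probe set choice and left out each line. Promoter windows came from RefSeq.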

Additional observations from a re-analysis of the deposited data

Results flagged for a closer look

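DNMT3A had opposite signs in different lines, with log2 differences of -0.88 in ACHN and 0.61 in CAKI2, 1.499 apart. A498 and CAKI1 had -0.32 and -0.45. With 1 pair of arrays per line the difference between lines was not tested. The second probe set had the same signs, -0.34 in ACHN and 0.73 in CAKI2.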

How the results depend on the processing

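UHRF1 and HELLS kept their direction and their call in all 14 alternatives, and no member's log2 difference changed sign in an alternative that measured it. Without the cell line as a block, 2 members were lower (UHRF1 and HELLS) and 0 higher in limma, with 29 genes lower and 38 higher in all. At an unadjusted p of 0.05 the members numbered 4 and 0. By probe set 3 were lower and 0 higher, or 7 and 0 unadjusted. Shares over all features are not at hand for the unadjusted and probe set counts in this paragraph, so those counts are not read further. DNMT1 (adjusted p = 0.151), EZH2 (0.122) and DNMT3B (0.616) lost their calls there. Their log2 differences were the same as with the block, at -1.05, -1.15 and 0.81. Without the block the spread between lines counts as error, and its part in the lost calls was not tested. With probe sets of suffix _x_at or _s_at left out, DNMT1, DNMT3B, EZH2 and SUV39H1 had none left. Of the other 4 members 3 were lower and 0 higher (unadjusted, 3 and 0). In that fit 14.5% of all genes were lower and 1300 of 9377 higher. Between lines 3 of these members differed (58.4% of all genes), and the median was -1.18. SUV39H2 lost its call in 8 of the alternatives, also without a filter (adjusted p = 0.0634), without the trend (0.0815) and when a gene's probe sets were averaged (0.0823). Members that differed between lines numbered 2 without the variance trend, where 53.2% of all genes did. With a line left out 4 to 5 members were lower by gene, against 11.5% to 13% of all genes. In those fits 1 member was higher, against 1237 to 1500 of 12093 genes. By probe set 7 to 8 were lower and 1 was higher, again without a share over all probe sets. Between lines 3 to 5 members differed, against 47.7% to 53% of all genes. The median was -0.95 to -0.73. With each array centred on its median, 58.3% of called genes were higher against 48.0% otherwise. There 4 members were lower and 1 higher, against 12.8% of all genes lower and 2163 of 12096 higher. One probe set each of HELLS and DNMT3A was too dim to test.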

Other observations

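In all 5 members that fell, the log2 differences in ACHN and CAKI2 were both lower than those in A498 and CAKI1, a pattern noticed after the values were seen. Of the 1928 genes called lower, 25.3% had it, and of the 23 replication and proliferation genes called lower 19 had it. UHRF1 had -2.77 and -2.92 in ACHN and CAKI2 against -1.83 and -1.67 in A498 and CAKI1. The ACTB 3′ over 5′ ratio split the lines likewise, its log2 difference being 0.98 (ACHN), 0.64 (CAKI2), 0.42 (A498) and 0.51 (CAKI1). For GAPDH it was 0.03, 0.05, 0.09 and 0.15 in the same order, smaller in ACHN and CAKI2. With 1 pair of arrays per line neither the pattern nor its relation to these ratios was tested.

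Of 21 germline genes measured that are often silenced by DNA methylation, 1 reached the level needed for a test. That gene, TDRD9, of the piRNA pathway, differed by 1.68 in ACHN and by -0.03 (CAKI2), -0.20 (A498) and -0.09 (CAKI1) elsewhere and did not pass (limma adjusted p = 0.455).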
